A study of Mus musculus with 2 samples.

Results

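The genes described here are 39 genes of the cell division cycle: 18 that act in S phase, when DNA is copied, and 21 that act in mitosis or are made in the cells that approach it. They were chosen by gene symbol alone, from a fixed list of names, and all 39 were found among the 31053 genes of the single-cell count matrices, each on 1 row. No measured value entered the choice of rows, but the list was drawn up with earlier results of these data known. The S-phase genes are Mcm2, Mcm3, Mcm4, Mcm5, Mcm6, Mcm7, Pcna, Tyms, Rrm1, Rrm2, Pclaf, Gins2, Cdc6, Cdc45, Ccne1, Ccne2, Uhrf1 and Hells. The mitotic genes are Mki67, Top2a, Birc5, Cdk1, Cenpf, Cenpa, Cenpe, Ccna2, Ccnb1, Ccnb2, Ube2c, Hmgb2, Nusap1, Tpx2, Aurka, Aurkb, Bub1, Plk1, Cdc20, Kif11 and Kif23.

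The cells are medullary thymic epithelial cells (mTECs) of mouse thymus, sorted as EPCAM+ Ly51- and captured by 10x 3' single-cell RNA sequencing. There was 1 library for each of 2 genotypes. The labels give the first as Foxn1-Cre(+) Ikaros+/fl, and the second as Foxn1-Cre(+) Ikarosfl/fl. In both, Foxn1-Cre drives Cre recombinase in thymic epithelium, so they differ by 1 or 2 floxed alleles of the gene for the zinc-finger factor Ikaros (Ikzf1). They are called the library labelled +/fl and the library labelled fl/fl, because the names of the deposited files call them the other way round: the first is named as a knockout and the second as a control. Neither labels nor protocols state the age, sex or number of the animals, or which exons are deleted. Ikzf1 stood at 64.4 CPM (UMIs of the gene per 1000000 UMIs; 95% Poisson interval 62.4 to 66.5) in Epcam-positive cells of the library labelled +/fl and at 36.6 CPM (35.2 to 37.9) in those labelled fl/fl. A 3' tag can lie outside the deleted part, so these levels do not check the labels. The X-inactivation transcript Xist was at 1317 and 0.902 CPM over all kept cells of the +/fl and fl/fl libraries. The Y-linked gene Ddx3y was at 0 UMIs, which allows up to 0.0450 CPM by a limit of 3 UMIs, in the former and at 64.5 CPM in the latter, so genotype and sex cannot be told apart here. With 1 library per genotype there is no test between genotypes, and every interval below covers counting error only.

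A cell that enters the cycle first licenses its DNA for copying. Cdc6 loads the MCM2-7 helicase onto origins, Ccne1 and Ccne2 (E-type cyclins) with their kinase start replication, Cdc45 and the GINS complex turn the loaded helicase on, and Pcna clamps the polymerases to DNA. E2F transcription factors switch on these genes near the start of S phase. The B-type cyclins with Cdk1, the Aurora and Polo kinases, kinetochore proteins and mitotic kinesins then drive mitosis, and Cdc20 and Ube2c direct the anaphase-promoting complex that ends it. Genes of this second wave are controlled through the DREAM, MYBL2 and FOXM1 complexes, often at a cell cycle homology region (CHR) beside CCAAT boxes. In the thymic medulla, cells with high Ccl21a, the chemokine that draws thymocytes inward, and Aire-expressing cells, which display tissue antigens, lie along a path on which some cells still divide, while specialised mTECs that resemble tuft, ciliated or skin cells are regarded as mature.

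The promoters of the members show the letters that these 2 waves of control read. RefSeq promoters of GRCm38.p6, each 250 bases before to 50 bases after a start, were available for 33 members, 15 S-phase and 18 mitotic. They were searched on both strands for E2F letters (TTTCCCGC, TTTGGCGC, TTTCGCGC or TTTGCCGC, of which TTTGGCGC and TTTCGCGC can overlap on opposite strands), for CHR letters (TTTGAA or TTCGAA) and for CCAAT. E2F letters stood in 8 of 15 S-phase promoters (53.3%: Cdc6, Hells, Mcm3, Mcm5, Mcm6, Mcm7, Pclaf and Uhrf1) and 1 of 18 mitotic promoters (5.56%: Cdk1), against 2.26% of all 32851 promoters in the table. CHR letters stood in 3 of 15 S-phase promoters (20%) and 14 of 18 mitotic promoters (77.8%), against 19.2% of all. CCAAT stood in 11 of 15 and 16 of 18, against 37.4% of all. The windows below are shown because they carry the motif that parts the lists; capitals mark the motif, and positions count from the start that RefSeq's promoter entry gives, base -1 being the last before it. That start is 1 of several for some genes: Uhrf1 has a further entry upstream of the one shown, and the windows of Uhrf1, Cdc6 and Hells, of Cdc20 and Ube2c, and of Cdk1 with CHR letters lie wholly or partly inside the gene as GENCODE M21 draws it. The first 5 are S-phase genes with E2F letters.
Mcm5, chr8:75109345-75109374, plus strand, motif at -153: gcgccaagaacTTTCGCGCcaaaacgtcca
Mcm6, chr1:128359797-128359826, minus strand, motif at -110: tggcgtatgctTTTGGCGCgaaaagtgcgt
Cdc6, chr11:98908002-98908031, plus strand, motif on the opposite strand at -138: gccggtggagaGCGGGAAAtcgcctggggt
Hells, chr19:38930917-38930946, plus strand, motif at -62: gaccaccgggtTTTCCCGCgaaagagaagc
Uhrf1, chr17:56304117-56304146, plus strand, motif at -185: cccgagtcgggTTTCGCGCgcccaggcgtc

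Cdk1, the kinase of the B-type cyclins, was the mitotic member with both kinds of letters, E2F at -131 and CHR at -15. A promoter with both is rare in the table (0.317% of all), and among S-phase members 1 had both. The next lines give Cdk1 with each motif and then mitotic members with CHR letters alone.
Cdk1, chr10:69353025-69353054, minus strand, E2F: tttccgctcccTTTCGCGCtctgcgctccc
Cdk1, chr10:69352913-69352942, minus strand, CHR: ctttaccgcggcgagTTTGAAactgctggc
Cdc20, chr4:118437344-118437373, minus strand, CHR at -18: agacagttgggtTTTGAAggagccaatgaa
Mki67, chr7:135716460-135716489, minus strand, CHR at -98: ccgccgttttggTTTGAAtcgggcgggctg
Ube2c, chr2:164769888-164769917, plus strand, CHR on the opposite strand at -29: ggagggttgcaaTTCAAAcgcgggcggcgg
Top2a, chr11:99024292-99024321, minus strand, CHR at -120: ggcggtcttttgTTCGAAtaaaagacgatc
A match is a description of letters, not a measured site, and no binding was measured in this series.

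After filtering, 4891 (+/fl) and 7669 (fl/fl) cells were kept, with median depths of 10731 and 8187 UMIs per cell. The 2 libraries shared 11 cell barcodes. Epcam-positive clusters held 4250 and 7159 cells, and their mix differed between libraries. Tuft-like cells numbered 1856 and 826, Ccl21a-high mTEC-like cells 1064 and 1572, and Aire-stage mTEC-like cells 108 and 2258. A cluster led by Fcrls and 4922502D21Rik, left unnamed, held 949 and 53 cells, and an unnamed cluster led by Mt4 and Cytl1 held 10 and 1148. Clusters of other cells were left out of the Epcam-positive set; T-lineage-like cells (95 and 136) and Myeloid-like cells (358 and 329) among them had cycling shares of 30.2% and 17.4%, and of 7.14% and 6.91%. Classes were rebuilt here by clustering with the listed cell cycle genes left out, so that dividing cells could fall beside the resting cells they otherwise resemble. Cycle genes outside the lists were not removed, and the cycling Aire-stage cells still lay mostly in a single cluster, given below.

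To call cells, each was thinned to 2000 UMIs. A cell counted as S-phase positive with at least 3 UMIs from at least 2 of the 18 S-phase genes, as mitotic positive likewise from the 21 mitotic genes, and as cycling with either. The call has an edge: at 2000 UMIs, 37 and 52 Epcam-positive cells of the +/fl and fl/fl libraries held exactly 3 S-phase UMIs and 133 and 230 held 2, while 38 and 128 held exactly 3 mitotic UMIs and 196 and 411 held 2. Without thinning, the same call marks 38.6% and 36.8% of Epcam-positive cells, and 28.5% and 28.9% of Tuft-like cells, which is why depth was fixed. As a floor for the thinned call, 0 of 27 and 0 of 243 Neuroendocrine-like cells were cycling, at median full depths of 12198 and 8525 UMIs, and 0.891% (16 of 1795) and 2.11% (16 of 760) of Tuft-like cells were. The Tuft-like floor was not common to both libraries, being 2.36-fold higher in fl/fl (log2 1.24, 0.14 to 2.33).

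The S-phase and mitotic genes were first compared across phases, in cells that the members themselves did not choose. Cells were called S-like or mitotic-like by the same rule from 42 other replication genes and 45 other mitotic genes. That gave 397 and 598 S-like only, 92 and 152 with both, and 149 and 326 mitotic-like only cells in the +/fl and fl/fl libraries. The member-based call also marked 82.6% and 81.6% of the cells with both, but 10.1% and 9.70% of the S-like only cells and 36.9% and 28.5% of the mitotic-like only cells. All 21 mitotic members were higher in mitotic-like than in S-like cells, pooled over libraries, while 13 of 18 S-phase members were lower. Of all 13863 genes measured there, 47.2% were higher and 52.8% lower.

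Among the S-phase members Cdc6 had the largest difference between the phases. This origin loader went from 5.75 CPM in S-like to 0.612 CPM in mitotic-like cells, 9.40-fold lower (3.86 to 29.8), on 78 and 5 UMIs. The helicase subunits were lower too: Mcm2 went from 18.3 to 6.36 CPM, Mcm6 from 32.7 to 11.9 CPM and Mcm5 from 24.6 to 9.78 CPM. Mcm3, Mcm4 and Mcm7 were lower by less, with log2 differences from -0.91 to -0.70. Hells, a chromatin remodeller needed for DNA methylation, went from 31.8 to 11.6 CPM, and Ccne2 from 7.81 to 2.45 CPM. Pcna, which also serves DNA repair, differed by less, at 58.5 and 38.7 CPM (1.51-fold, 1.33 to 1.73). For Cdc45 the interval of the difference, 1.17-fold lower (0.77 to 1.80), includes no change.

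The remaining 5 S-phase members were not below their S-like level in mitotic-like cells. Pclaf, a Pcna-binding factor, was higher there, at 38.6 CPM in S-like and 67.8 CPM in mitotic-like cells (1.75-fold, 1.55 to 1.98), and reached 429 CPM in cells with both calls. Tyms, which makes thymidylate, was at 25.9 and 37.3 CPM, and Rrm1, a subunit of ribonucleotide reductase, at 20.5 and 28.6 CPM. Rrm2, the other subunit, was at 15.3 and 15.4 CPM and Uhrf1, which guides maintenance methylation, at 25.8 and 27.8 CPM. The intervals of these last 2 differences, 0.80 to 1.26-fold and 0.91 to 1.28-fold, include no change. Tyms, Rrm1 and Rrm2 all supply the precursors of DNA. The member-based call marked 10.1% and 9.70% of S-like only and 36.9% and 28.5% of mitotic-like only cells in the +/fl and fl/fl libraries. These levels are therefore not those of S-phase and mitotic cells alone. The part of cells without a member-based call in the differences was not tested.

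Among the mitotic members the range was from Hmgb2 to Ube2c. Ube2c, the ubiquitin-conjugating enzyme of the anaphase-promoting complex, went from 16.8 CPM in S-like to 274 CPM in mitotic-like cells (16.3-fold, 14.2 to 18.8). Its partner Cdc20 went from 6.78 to 108 CPM, the kinetochore protein Cenpf from 17.0 to 204 CPM, and Plk1, the Polo kinase, from 2.87 to 37.4 CPM. Mki67 and Top2a, which are made from S phase onward, differed by less, from 28.5 to 153 CPM and from 40.8 to 181 CPM. Hmgb2, a chromatin protein, had the smallest difference, from 261 to 942 CPM (3.61-fold). The same order of the lists was seen in each library, as the plot of phase differences shows.

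**Figure D1:**
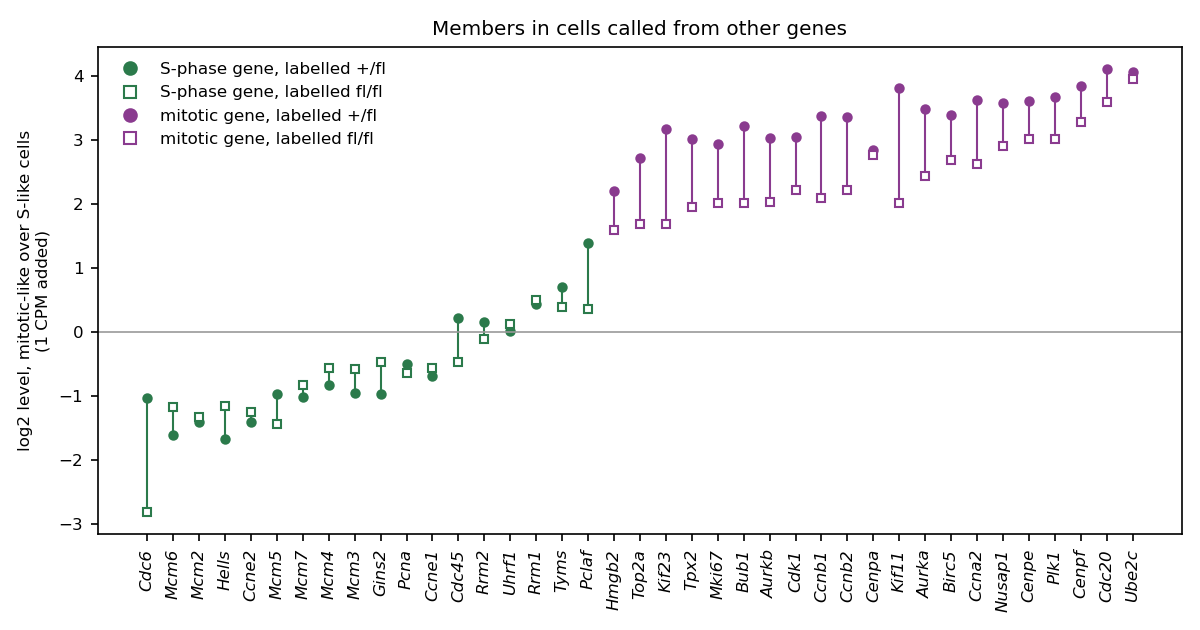
Each member's log2 difference between mitotic-like and S-like Epcam-positive cells (y axis, 1 CPM added), called from other genes; circles are the library labelled +/fl and squares the library labelled fl/fl. Every mitotic gene lies above 0 in both libraries, Cdc6 of the library labelled fl/fl lies lowest, and Pclaf, Tyms, Rrm1 and Uhrf1 lie above 0 in both libraries among the S-phase genes, Uhrf1 close to it.

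How sharply a member marks a cycling cell also varied. Over cells with any call from the other genes against cells with none, Pclaf was 41.2-fold higher (133 against 3.22 CPM), the A-type cyclin Ccna2 38.3-fold, the spindle protein Nusap1 37.7-fold, Plk1 36.9-fold and Birc5, survivin of the chromosomal passenger complex, 33.1-fold. Pcna was 2.07-fold higher (72.6 against 35.1 CPM), Mcm4 2.69-fold, Gins2 3.01-fold and Mcm7 3.07-fold. Hmgb2 had 144 CPM in cells without a call, and it supplied 44.6% and 46.5% of all mitotic member UMIs of Epcam-positive cells and 73.0% and 69.0% of those of Tuft-like cells.

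Within 1413 Epcam-positive cells called from the other genes and thinned to 5000 UMIs, members of 1 list varied together, which is given as a description. Mki67 correlated most with Top2a (r = 0.65), Nusap1 with Ube2c (0.63) and Cenpf with Mki67 (0.62). Pclaf stood between the lists, with a mean r of 0.31 to the S-phase genes and 0.30 to the mitotic genes, and was closest to Top2a (0.59), Hmgb2 (0.55) and Rrm2 (0.54). Cenpa, the centromeric histone, had a mean r of -0.01 with the S-phase genes and was closest to Cdc20 (0.44). Correlations among the sparse S-phase genes were low, Cdc6 reaching 0.19 with Mcm6.

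Other genes of the cycle were read across the phases called from the members. Of the other mitotic genes, all 42 measured were higher in mitotic-only than in S-phase-only cells in each library, where 59.3% and 57.3% of all genes were higher and 40.7% and 42.7% lower. Of the other replication genes, 27 of 29 and 32 of 32 were higher in S-phase-only cells. The regulators were divided, with 17 of 31 and 14 of 30 higher in mitotic-only cells. E2f1, an activator of the G1/S wave, was at 40.0 and 54.9 CPM in S-phase-only, 3.8 and 4.3 CPM in mitotic-only and 1.1 and 1.0 CPM in not cycling cells of the +/fl and fl/fl libraries. Chek1, the replication checkpoint kinase, had the same order, at 43.7 and 45.2, 9.2 and 4.3, and 1.3 and 1.7 CPM. Fbxo5, an inhibitor of the anaphase-promoting complex, was highest in cells with both calls, at 74.1 and 75.2 CPM, as were Foxm1 (24.7 and 21.1 CPM) and Mybl2 (22.2 and 24.3 CPM), factors of the mitotic wave.

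Some G1 genes differed between cycling cells and the rest. Ccnd2, a D-type cyclin, was at 756 and 805 CPM in S-phase-only cells, 360 and 427 CPM in mitotic-only cells and 195 and 249 CPM in cells not cycling. Ccnd1 and its kinase partner Cdk4 had the same order. The CDK inhibitor Cdkn1c ran the opposite way, at 30.3 and 37.7, 203 and 233, and 837 and 430 CPM. Cdkn1a, the p53-induced inhibitor, was at 88.6 and 139, 196 and 211, and 336 and 334 CPM. For both inhibitors the S-phase-only cells were the lowest of the 3 groups in each library. The groups differ in class: Tuft-like cells made up 46.9% and 12.2% of cells not cycling, but 7.69% and 1.89% of S-phase-only cells. The part of the class mix in these levels was not tested.

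Over 25 profiles of cluster and library, from 14 clusters of a clustering that kept the cycle genes, the genes outside every list whose levels ran most like the summed S-phase members were Hist1h2an (Pearson r = 0.92), Pa2g4, Ranbp1 and Nrm (each 0.91) and Hist1h3c (0.90), with Rcc1, Hist1h2ae, Nsg1, Dek and Ppih following. For the mitotic members they were Kif14, Cep55 and Cenpn (0.96, 0.94 and 0.94), then Cdkn3, Esco2, Gas2l3, Kif22, Parpbp and Shcbp1. Profiles of 1 library share its depth and handling.

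Across the Epcam-positive classes, both lists were low in Tuft-, Microfold- and Neuroendocrine-like cells and higher in Ccl21a-high and Aire-stage mTEC-like cells and the Fcrls-led cluster. Summed S-phase members stood at 104 and 110 CPM in Tuft-like cells, 97.2 and 108 CPM in Microfold-like cells and 103 and 93.8 CPM in Neuroendocrine-like cells of the +/fl and fl/fl libraries. In Ccl21a-high mTEC-like cells they stood at 343 and 291 CPM, in Aire-stage mTEC-like cells at 340 and 348 CPM, and in the Fcrls-led cluster at 321 and 958 CPM. The summed mitotic members stood at 201 and 254 CPM in Tuft-like, 712 and 497 CPM in Ccl21a-high, 2188 and 875 CPM in Aire-stage and 826 and 1678 CPM in Fcrls-led cells. In bulk sums like these, fewer cycling cells and less RNA per cycling cell cannot be told apart.

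**Figure D2:**
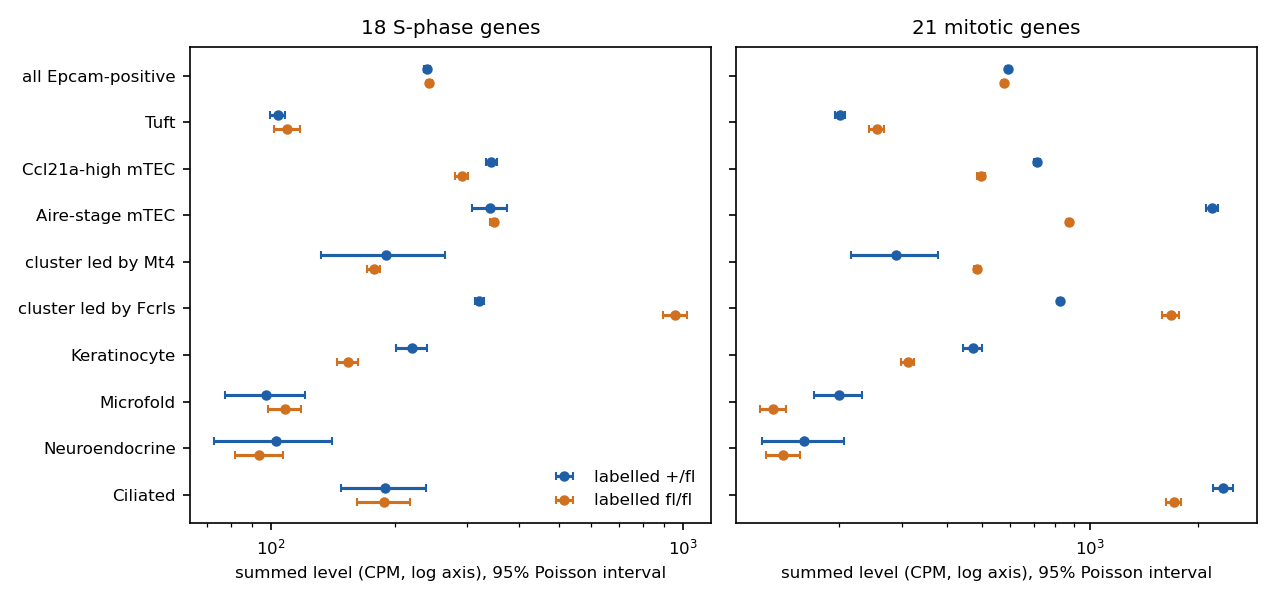
Summed level (CPM, log axis) of the 18 S-phase genes (left) and 21 mitotic genes (right) in each Epcam-positive class, with 95% Poisson intervals; blue is the library labelled +/fl, orange the library labelled fl/fl. The Ciliated-like class lies far right for mitotic genes (2351 and 1711 CPM) and not for S-phase genes (189 and 188 CPM).

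Single members show the same pattern with different floors. Mki67, the proliferation antigen, was at 4.0 and 7.1 CPM in Tuft-like, 46.3 and 34.0 CPM in Ccl21a-high and 110 and 61.8 CPM in Aire-stage mTEC-like cells. Pclaf was at 1.05 and 1.20, 37.9 and 27.7, and 66.8 and 59.3 CPM in the same classes, and at 0 UMIs in Neuroendocrine-like cells of both libraries. Pcna had a narrow range, at 34.5 and 33.9, 48.2 and 44.3, and 55.4 and 50.4 CPM. Cenpa was the mitotic gene that ran against this order in both libraries: it was higher in Tuft-like cells (18.1 and 22.5 CPM) than in Ccl21a-high mTEC-like cells (8.80 and 5.31 CPM), and in fl/fl also than in Aire-stage mTEC-like cells (66.0 and 13.3 CPM). Keratinocyte-like cells had 27.1 and 8.4 CPM of Mki67.

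The balance of the lists, S-phase over mitotic UMIs, compares groups of cells and not genes. It was 0.40 and 0.42 over all Epcam-positive cells, 0.48 and 0.59 in Ccl21a-high mTEC-like cells, 0.16 and 0.40 in Aire-stage mTEC-like cells, 0.52 and 0.43 in Tuft-like cells and 0.080 and 0.11 in Ciliated-like cells. In the Mt4-led cluster of the library labelled fl/fl it was 0.37, and of its 57 cycling cells 49 were mitotic only, 6 S-phase only and 2 both.

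Cycling cells made up 5.20% (208 of 4000; 95% exact interval 4.53 to 5.93) of Epcam-positive cells in the library labelled +/fl and 5.89% (381 of 6464; 5.33 to 6.50) in the library labelled fl/fl. S-phase positive cells were 2.42% and 2.21%, and mitotic positive cells 4.22% and 5.07%. By phase the cycling cells were 39 S-phase only, 58 both and 111 mitotic only in +/fl, and 53, 90 and 238 in fl/fl. Cycling cells were deeper, with medians of 24834 and 16249 UMIs against 11298 and 9086 in the rest, and their median doublet scores were 0.0475 and 0.0480 against 0.0317 and 0.0412; the part of either in the calls was not tested. The leukocyte gene Ptprc had a UMI in 2 and 1 of the cycling cells.

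**Figure D3:**
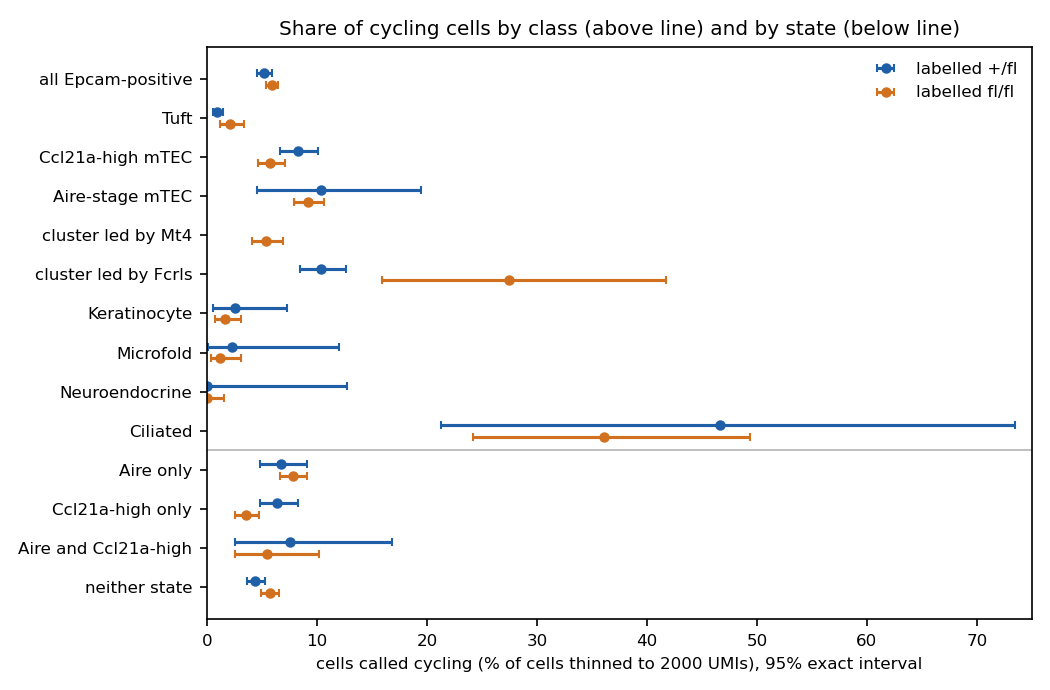
Cells called cycling (% of cells thinned to 2000 UMIs, x axis) by class above the line and by Aire and Ccl21a state below it, with exact 95% intervals; blue is labelled +/fl, orange labelled fl/fl. Ciliated-like cells have the highest shares (46.7% and 36.1%), and Neuroendocrine-like cells are at 0; the Mt4-led cluster is drawn for fl/fl only.

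The cycling cells sat in a few clusters. In the Ccl21a-high class, 8.24% (84 of 1019) and 5.76% (84 of 1459) were cycling, but its 3 clusters differed: 16.2% (58 of 358) and 11.2% (56 of 500) in cluster 5, 2.37% and 2.47% in cluster 6, and 4.90% and 3.87% in cluster 7. In the Aire-stage class, 10.4% (8 of 77) and 9.22% (175 of 1899) were cycling, and 8 of those 8 and 149 of those 175 lay in cluster 10, where 40.0% (8 of 20; 19.1 to 63.9) and 25.2% (149 of 592; 21.7 to 28.9) were cycling. Cluster 10 is led by Marco, Fabp7 and also by Pclaf and Pbk, although the cycle genes of the lists were not used to form it. The Fcrls-led cluster had 10.4% (89 of 855) and 27.5% (14 of 51). In cells named for other mature types the shares were low: 2.54% and 1.65% of Keratinocyte-like, 2.27% and 1.20% of Microfold-like, and 0 of 40 and 0 of 14 Muscle-like cells. In fl/fl the Keratinocyte- and Microfold-like shares lay below the Tuft-like 2.11%.

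Where the cycling cells came from differed between the libraries, as the class mix did. Of the 208 cycling cells labelled +/fl, 42.8% lay in the Fcrls-led cluster, 40.4% in the Ccl21a-high class and 3.85% in the Aire-stage class. Of the 381 labelled fl/fl, 3.67%, 22.0% and 45.9% did, and a further 14.96% lay in the Mt4-led cluster. Ciliated-like cells made up 3.37% and 5.77%.

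In Ciliated-like cells the summed mitotic members stood at 2351 and 1711 CPM, and the summed S-phase members at 189 and 188 CPM. The class held 16 and 63 cells, with Foxj1, the master factor of motile cilia, at 708 and 629 CPM against 16.2 and 27.99 CPM in all other Epcam-positive cells. Of 15 and 61 deep enough, 46.7% (7 cells; 21.3 to 73.4) and 36.1% (22 cells; 24.2 to 49.4) were called cycling, 7 of 7 and 21 of 22 of them as mitotic only. Against all other Epcam-positive cells, called and uncalled, 17 and 15 of 21 mitotic members were at least 2-fold higher, beside 19.4% and 15.9% of all genes, and 1 and 1 at least 2-fold lower, beside 35.9% and 29.4%. Their median folds were 4.22 and 2.92. Of the 18 S-phase members 2 and 1 were at least 2-fold higher and 10 and 7 at least 2-fold lower, with median folds of 0.25 and 0.67. Those lower in +/fl include Mcm2, Mcm4, Mcm5, Tyms, Cdc6, Ccne1 and Ccne2, each at 0 UMIs, which allows up to 9.82 CPM. Cdc6, Ccne1 and Ccne2 were at 1.25, 3.26 and 5.31 CPM in the other cells, so a lower level could not be seen for them. Of the other mitotic genes, 34 and 29 of 45 were at least 2-fold higher.

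Against the other cells called cycling, which the members' own UMIs chose, some mitotic genes of Ciliated-like cells were higher and most lower. The Ciliated-like level pools called and uncalled cells, while the other cells were all called. The 7 and 22 called Ciliated-like cells held 96.4% and 83.3% of the class's mitotic UMIs. Cdc20 was at 258 CPM (209 to 315, on 97 UMIs from 6 cells) and 160 CPM (136 to 187, on 154 UMIs), above the 115 and 83.0 CPM of the other cycling cells. Aurka, a centrosomal kinase, was at 87.9 and 64.3 CPM against 39.3 and 38.99, and Ccnb1 at 109 and 66.4 CPM against 83.5 and 62.6. Cenpf was at 274 and 141 CPM against 250 and 220. Below the cycling level were Mki67, at 29.3 and 39.4 CPM against 269 and 282, and Ccna2, with 1 UMI in each library against 102 and 92.1 CPM. Pclaf was at 32.0 and 4.15 CPM, on 12 and 4 UMIs, against 280 and 295 CPM. In all, 4 and 3 mitotic members lay above the cycling level. Among S-phase members Rrm1 (61.2 and 36.3 CPM) and Rrm2 (37.3 and 18.7 CPM) stood beside 15.8 and 15.7 CPM and 8.998 and 12.1 CPM in all other Epcam-positive cells. E2f7, a repressor of the E2F family, was at 42.6 and 34.2 CPM against 2.12 and 2.77 CPM.

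**Figure D4:**
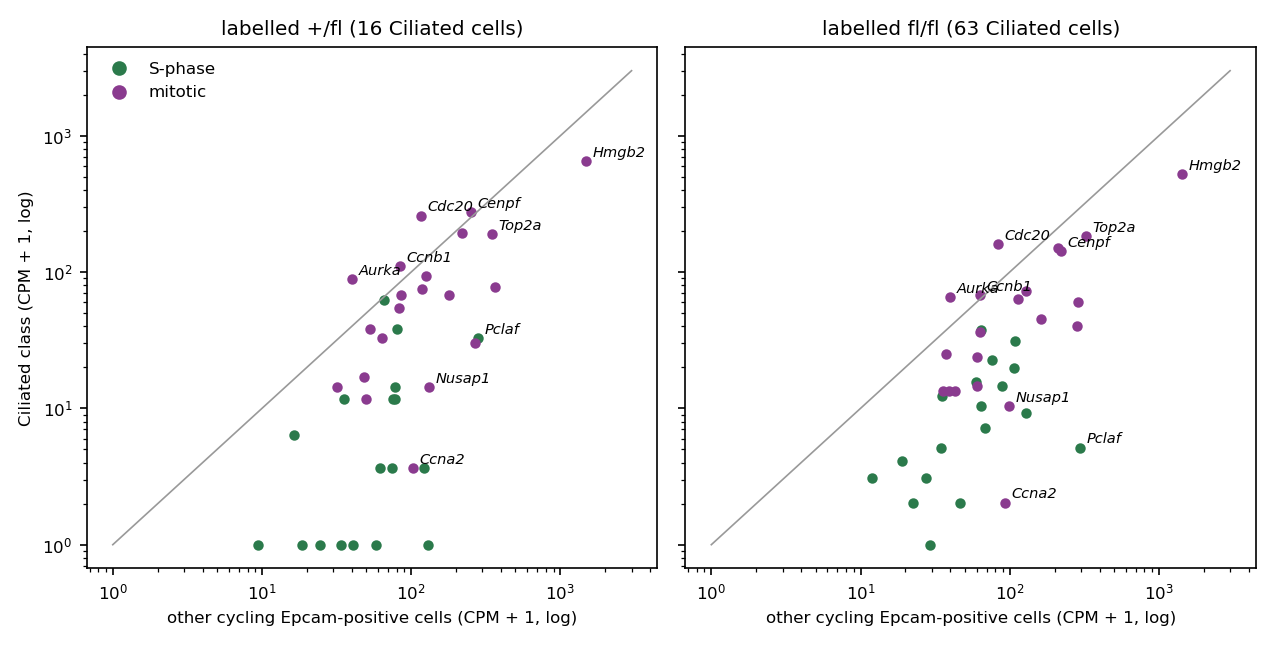
Level of each member in the Ciliated-like class (y axis) against the other cycling Epcam-positive cells (x axis), both as CPM + 1 on log axes; the left panel is labelled +/fl, the right fl/fl, and the line marks equal levels. Cdc20, Aurka and Ccnb1 lie above the line in both panels, while Ccna2, Pclaf and most S-phase genes lie far below it.

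Cycling cells were then split by Aire and Ccl21a. The Aire state was at least 1 Aire UMI of 2000, and the Ccl21a-high state at least 10 Ccl21a UMIs of 2000. Of Aire-only cells 6.71% (39 of 581) and 7.80% (146 of 1872) were cycling, and of Ccl21a-high-only cells 6.41% (55 of 858; 4.87 to 8.26) and 3.52% (42 of 1192; 2.55 to 4.73). Cells with both states were few, 66 and 164, and 7.58% (5 cells; 2.51 to 16.8) and 5.49% (9 cells; 2.54 to 10.2) of them were cycling. Of cells with neither, 4.37% (109 of 2495) and 5.69% (184 of 3236) were. For comparison, 17.0% and 19.9% of Myeloid-like cells met the Aire rule and 1.36% and 0.81% the Ccl21a-high rule. A share at or below these is not read as a state above background. Whether the Myeloid-like cells make Aire themselves or carry RNA of other cells was not tested. Over all Epcam-positive cells the Aire rule was met by 16.2% and 31.5%, so in the library labelled +/fl it did not exceed the Myeloid-like share, and the Ccl21a-high rule by 23.1% and 20.98%.

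Read from the cycling cells, the Aire state held 21.2% (15.8 to 27.3) of them in +/fl and 40.7% (35.7 to 45.8) in fl/fl, where it held 15.9% and 30.9% of cells not cycling. In +/fl the share of cells not cycling lay below the Myeloid-like share, and the interval of the cycling share includes that Myeloid-like share. The Ccl21a-high state held 28.8% (22.8 to 35.5) and 13.4% (10.1 to 17.2), beside 22.8% and 21.5% of cells not cycling. Cells that were cycling with both states made up 2.40% and 2.36% of the cycling cells, beside 1.61% and 2.55% of the rest. Aire itself was at 155 and 333 CPM, and Ccl21a at 3595 and 2488 CPM, over Epcam-positive cells. The Aire share of cycling cells was higher in fl/fl and the Ccl21a-high share lower, as were the levels of these genes.

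By phase, the Ccl21a-high state held 43.6% (17 of 39) and 26.4% (14 of 53) of S-phase-only cells, but 24.3% and 10.9% of mitotic-only cells. The Aire state held 25.6% and 35.8% of S-phase-only and 18.02% and 41.6% of mitotic-only cells, so it had no common order between libraries. No cell with both states was S-phase and mitotic positive at once in either library. Cycling Aire-only cells had 369 and 586 CPM of Aire and 417 and 423 CPM of Ccl21a, and cycling Ccl21a-high-only cells 66.9 and 33.7 CPM of Aire and 10950 and 11718 CPM of Ccl21a. Krt5, a basal keratin, was at 316 and 172 CPM in the former and 2523 and 2004 CPM in the latter, and Fezf2, a factor for tissue antigens, at 387 and 510 and at 174 and 90 CPM.

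Cycling Aire-only cells had 1568 and 1130 CPM of S-phase and 3234 and 3789 CPM of mitotic members, and cycling Ccl21a-high-only cells 1524 and 1369 CPM and 3073 and 3543 CPM. The call itself sets part of these levels. In cells called from the other genes, Mcm5 was at 33.2 and 24.5 CPM in Aire-only and 58.3 and 39.8 CPM in Ccl21a-high-only cells, and Mcm4 at 22.0 and 19.7 and at 42.9 and 26.9 CPM. Rrm2 ran the other way, at 67.2 and 58.5 and at 46.0 and 17.3 CPM, as did Uhrf1, at 61.6 and 49.9 and at 37.1 and 19.9 CPM, Pclaf, at 198 and 127 and at 136 and 65.4 CPM, and Cenpa, at 29.5 and 29.5 and at 15.02 and 14.7 CPM. Other mitotic members had a wider gap in fl/fl: Tpx2 was at 49.6 and 71.2 CPM in Aire-only and 34.5 and 26.3 CPM in Ccl21a-high-only cells, and Top2a at 155 and 169 and at 126 and 80.1 CPM. These groups held 106 and 400 Aire-only and 146 and 178 Ccl21a-high-only cells.

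Between the libraries, the summed members were nearly level over all Epcam-positive cells. S-phase members stood at 239 CPM in +/fl and 243 CPM in fl/fl (log2 fl/fl over +/fl 0.02, -0.01 to 0.05) and mitotic members at 591 and 575 CPM (-0.04, -0.06 to -0.02). Of the 39 members 17 were higher and 22 lower in the library labelled fl/fl, beside 54.2% and 45.8% of 18221 genes. Past 1.5-fold, 0 were higher and 1 lower, beside 21.6% and 7.37% of genes: Cenpa, at 16.0 and 10.3 CPM (1.56-fold lower, 1.41 to 1.71). Among S-phase genes the largest differences were Ccne1 (3.24 and 4.82 CPM), Mcm2 (8.64 and 6.31 CPM) and Uhrf1 (12.3 and 16.5 CPM), and among mitotic genes Plk1 (5.70 and 3.94 CPM), Nusap1 (13.5 and 10.1 CPM) and Ube2c (38.3 and 29.6 CPM). Mki67 was at 32.5 and 35.3 CPM and Pclaf at 29.6 and 30.01 CPM. The other lists were as evenly divided, with 23 of 42 replication genes, 24 of 45 mitotic genes and 21 of 36 regulators higher in fl/fl.

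That level total sat over different cell mixes. Without the Tuft-like cells, which were 1856 of the +/fl cells and 826 of the fl/fl cells, 36 of 39 members were lower in fl/fl, beside 43.4% of 17872 genes (56.6% were higher); the 3 higher were Cdc6, Cdc45 and Ccne1. The S-phase sum was then 308 and 255.2 CPM (log2 -0.27) and the mitotic sum 791 and 605 CPM (-0.39). Past 1.5-fold 7 members were lower, beside 5.43% of genes (19.9% were higher), all of them mitotic: Plk1, Nusap1, Ube2c, Cdc20, Cenpa, Ccnb2 and Ccna2. The share of cycling cells behaved alike: 8.71% (7.56 to 9.96) and 6.40% (5.78 to 7.07) without Tuft-like cells, against 5.20% and 5.89% with them. Standardised to the pooled class mix, the shares were 5.61% and 6.95%, which rest on small groups, among them 8 of 77 Aire-stage and 0 of 7 Mt4-led cells in +/fl and 14 of 51 Fcrls-led cells in fl/fl. The share also turned when Hmgb2 was left out of the call, at 4.65% and 4.19%.

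In the Ccl21a-high class, where both libraries had over 1000 cells, the mitotic members as a group were lower in fl/fl. All 21 were lower, and 12 were past 1.5-fold, as was Rrm2 among the S-phase genes, which makes 13 members beside 3.52% of 12030 genes; 0 members were higher past 1.5-fold, beside 4.51% of genes. In all 36 of the 38 members with at least 50 UMIs were lower, beside 44.4% of genes (55.6% were higher), and the 2 higher were Mcm7 (33.1 and 35.2 CPM) and Ccne1 (6.15 and 7.54 CPM). The mitotic sum was 712 and 497 CPM (log2 -0.52, -0.57 to -0.47) and the S-phase sum 343 and 291 CPM (-0.24, -0.30 to -0.17). Cells called cycling, 84 in each library, held 80.8% and 61.6% of these mitotic UMIs. The intervals count UMIs and do not cover the spread between cells, and the members are counted in the same cells. The median over members was -0.44, and over all genes 0.03. Kif23, a kinesin of cytokinesis, was at 10.3 and 3.72 CPM (2.76-fold lower, 1.92 to 4.05), Plk1 at 9.13 and 3.26 CPM (2.80-fold, 1.90 to 4.23) and Ube2c at 52.4 and 23.0 CPM (2.28-fold, 1.963 to 2.65). Nusap1 (18.6 and 7.92 CPM), Ccnb2 (16.9 and 7.64 CPM), Ccna2 (14.0 and 6.70 CPM), Cdk1 (36.4 and 19.1 CPM) and Birc5 (27.0 and 14.2 CPM) followed.

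In that class 41 of 42 other mitotic genes were lower in fl/fl, 19 of them past 1.5-fold. Of the other replication genes 24 of 38 were lower, with a sum at a log2 of -0.05, and of the regulators 20 of 34. The cycling share of the class was 8.24% and 5.76% (log2 -0.52, -0.97 to -0.06), and that of the Ccl21a-high-only state 6.41% and 3.52% (-0.86, -1.48 to -0.26). The median depth of the class was 10121 UMIs in +/fl and 6171 UMIs in fl/fl, and its 3 clusters took different parts of each library, 391, 260 and 413 cells against 585, 670 and 317; their part in the difference was not tested. When the cycle genes were kept in the clustering, cycling cells formed a class of their own, and the mitotic sum of the remaining Ccl21a-high cells turned to 0.25.

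**Figure D5:**
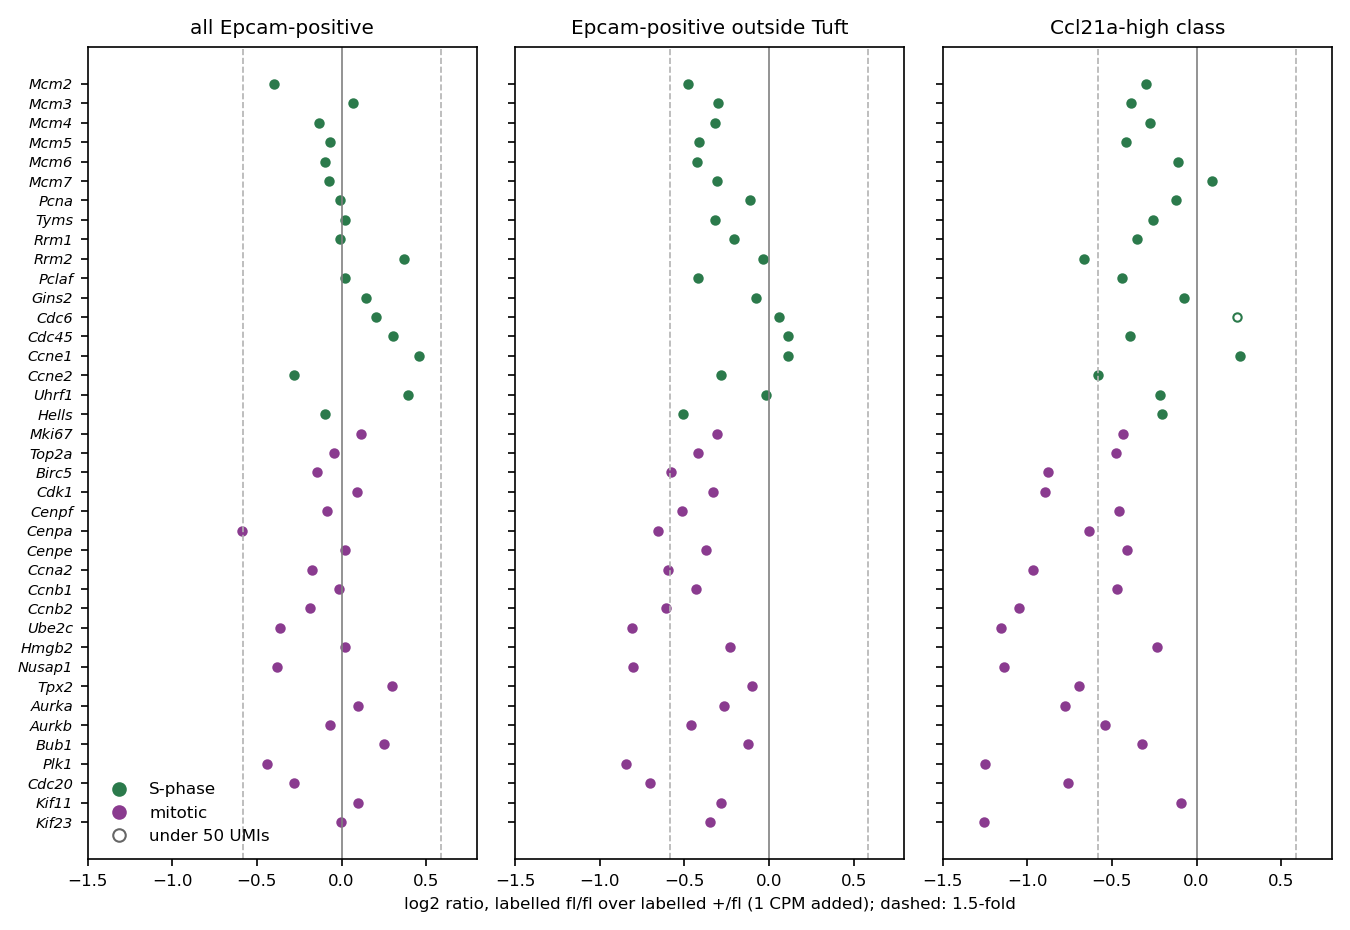
Log2 ratio of each member, labelled fl/fl over labelled +/fl with 1 CPM added (x axis), in all Epcam-positive cells, without Tuft-like cells, and in the Ccl21a-high class; dashed lines mark 1.5-fold and the open circle a gene under 50 UMIs. Points scatter about 0 in the left panel and lie mostly left of 0 in the others, the mitotic genes furthest.

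In the Aire-stage class, with 108 and 2258 cells, all 21 mitotic members were lower in fl/fl past 1.5-fold, beside 11% of 13616 genes (45.8% were lower at all). Of the 18 S-phase members 11 were higher, 5 of them past 1.5-fold, beside 54.2% and 20.5% of genes. Ube2c was at 265 and 52.8 CPM, Cdc20 at 85.5 and 15.1 CPM and Cenpa at 66.0 and 13.3 CPM. The difference rests on cluster 10, which held 25 cells in +/fl: without it the mitotic sum was higher in fl/fl, at a log2 of 0.64. In Tuft-like cells the 9 mitotic members with 50 UMIs were all higher in fl/fl, 4 of them past 1.5-fold, beside 52.8% and 9.33% of 12352 genes (47.2% were lower, 7.21% past 1.5-fold). The mitotic sum was 201 and 254 CPM (log2 0.34, 0.25 to 0.42) and the S-phase sum 104 and 110 CPM (0.08, -0.05 to 0.20). Tuft-like cells called cycling held 4.85% and 5.14% of these mitotic UMIs, and Hmgb2 supplied 73.0% and 69.0%. Of the other mitotic genes there, 11 of 21 were higher and 10 lower, and their sum was at a log2 of -0.02 (-0.09 to 0.04). Ccnb1 was at 1.75 and 5.11 CPM there, Kif23 at 2.70 and 6.46 CPM and Mki67 at 4.004 and 7.06 CPM.

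Cells were also split by the call, which the members' own UMIs make, so the counts here describe the split and nothing is read from them. Within cycling cells 28 of 39 members were lower in fl/fl, beside 49.9% of 11870 genes (50.1% were higher), and none was past 1.5-fold in either direction, beside 10.6% higher and 5.98% lower. Their mitotic sums were 4181 and 3799 CPM and their S-phase sums 1220 and 1198 CPM. Within cells not called cycling 33 of 39 were higher in fl/fl, beside 53.9% of 17981 genes (46.1% were lower), 9 of them past 1.5-fold, beside 22.9%. Tpx2, a spindle assembly factor, was at 2.49 and 7.16 CPM there, Cdk1 at 3.50 and 7.27 CPM, Rrm2 at 1.41 and 2.99 CPM and Uhrf1 at 5.53 and 9.29 CPM, while Cenpa (8.78 and 5.26 CPM) and Ccne2 (3.33 and 1.86 CPM) were lower past 1.5-fold, as 8.08% of genes were. Called cells held 51.7% and 46.8% of S-phase and 71.6% and 62.6% of mitotic member UMIs of Epcam-positive cells.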

How the data were processed

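The authors deposited raw UMI counts per gene and cell for each library; per the submitters' processing notes Cell Ranger and Seurat were used, with no versions named, and per the file headers the matrices carry software version 3.1.0. The genome build is not given in the sources used here. Each GEO sample is 1 library. The members, gene lists and markers were chosen with earlier results of these data known.

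Cells with at least 500 genes, 1000 UMIs and at most 15% mitochondrial UMIs were kept (69.8% and 74.0% of 7304 and 11095 barcodes, holding 85260592 and 99871505 UMIs before filtering). Scrublet's automatic threshold marked 1 and 0 cells, so the highest scores at 0.8% per 1000 cells were removed instead (208 and 539 cells). The 193 listed cycle and state genes were handled as fixed lists; the cycle genes among them were left out of the clustering on 2000 variable genes, 30 components, 15 neighbours and Leiden resolution 1 (22 clusters, 16 Epcam-positive). A cluster was named from at least 3 detected markers, with at least 1 of them among its leading 10 genes, a condition set after the clusters were seen. Cluster 4 (led by Fcrls) and cluster 1 (led by Mt4) stayed unnamed.

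Levels are CPM, UMIs of a gene per 1000000 UMIs of the group, and log2 differences add 1 CPM. Genes needed 50 UMIs over both libraries, and called means past 1.5-fold. Intervals are exact Poisson for levels and Clopper-Pearson for shares, at 95%, for counting error only. Poisson intervals take UMIs as separate draws and do not cover the spread between cells. The 324 and 797 kept cells under 2000 UMIs were left out of shares. Ccl21a has 2 rows; ENSMUSG00000094686 was used, and the other held 2 and 3 UMIs. Genes named are the members, the listed genes, class markers and the 10 genes most like each list over profiles of at least 30 cells and 200 UMIs. 1 of these is not reported here. Clusters' leading genes are named as descriptions. Promoters are RefSeq's for GRCm38.p6; of 35 member windows, 25 matched a GENCODE M21 transcript on the same strand and 0 on the opposite. Alternatives covered the call, depth, cell filters, doublets, clustering, scaling, the added CPM and, chosen after seeing the data, leaving out Hmgb2, Tuft-like cells, Ciliated-like cells or cluster 10. The steps were checked on simulated data. Python 3.11.15, scanpy 1.11.5, leidenalg 0.10.2, numpy 2.4.6, scipy 1.17.1 and edgeR 4.0.16 (TMM factors only) were used.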

Additional observations from a re-analysis of the deposited data

Results flagged for a closer look

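The mitotic members moved in opposite directions between the libraries in 2 classes. In the Ccl21a-high class their summed level was lower in fl/fl than in +/fl, at a log2 of -0.52. There 21 of 21 members were lower, beside 44.4% of all genes. In Tuft-like cells the summed level was higher in fl/fl, at a log2 of 0.34. Only 9 of the 21 members had 50 UMIs in Tuft-like cells, and all 9 were higher, beside 52.8% of all genes. Cells called cycling held 4.85% and 5.14% of the Tuft-like mitotic UMIs in +/fl and fl/fl, against 80.8% and 61.6% in the Ccl21a-high class. Hmgb2 alone supplied 73.0% and 69.0% of them in Tuft-like cells, against 40.5% and 49.4%. Without Hmgb2 the Tuft-like sum was 54.4 and 78.9 CPM. Of the other mitotic genes in Tuft-like cells 11 of 21 were higher and 10 lower, with a sum at a log2 of -0.02. The Tuft-like values were not recomputed under the alternative settings. There is 1 library per genotype, and the difference between the classes was not tested.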

How the results depend on the processing

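No paired analysis was possible because there is 1 library per genotype. All values here are log2 of fl/fl over +/fl unless said otherwise. The Ccl21a-high class kept its lower cycling share under the 10 alternatives run (-0.83 to -0.10), and the Aire share of cycling cells its higher value under 12 (0.82 to 1.33). For the Aire-stage cycling share (-0.17) 8 alternatives gave a value (-0.88 to 0.091), 7 of them in the same direction. The others, among them leaving out cluster 10, gave none, since no +/fl cell was called. The cycling share over Epcam-positive cells (0.18) kept its direction under 8 of 12 alternatives (-0.44 to 0.19). Among those that turned, it became -0.15 without Hmgb2 and -0.44 without Tuft-like cells. The Ccl21a-high share of cycling cells (-1.11) was -0.54 at 2 UMIs for a call and -0.38 with other genes calling. The ratio of S-phase-only to mitotic-only cells (-0.66) was 0.36 at 5000 UMIs with 8 for a call; the ratio of UMIs (0.06) was 0.026 with doublets kept, 0.11 without Hmgb2 and 0.12 without Tuft-like cells. Over Epcam-positive cells the S-phase sum (0.02) was -0.059 with the stricter cell filter, -0.014 with cycle genes kept in the clustering, 0.12 as a mean of per-cell CPM, -0.082 with TMM factors and -0.27 without Tuft-like cells. The mitotic sum (-0.04) was -0.11, -0.088, 0.16, -0.15 and -0.39 under the same 5, -0.019 with doublets kept and -0.092 without Hmgb2. Members lower (22) were 11 as a mean of per-cell CPM and 36 without Tuft-like cells; those lower past 1.5-fold (1) were 0 with doublets kept, with per-cell CPM and with 5 CPM added, and 7 without Tuft-like cells, where Rrm2 turned to -0.038 and Mki67 to -0.31. In the Ccl21a-high class the S-phase sum (-0.24) was -0.34 with doublets kept, -0.078 with cycle genes kept and -0.13 with per-cell CPM; the mitotic sum (-0.52) was -0.65, 0.25 and -0.19 under these, -0.62 with the stricter filter, -0.57 with TMM and -0.75 without Hmgb2. Members lower (36) were 16 with cycle genes kept, where Kif23 (0.24), Cdc20 (0.059) and Rrm2 (0.21) turned; those past 1.5-fold (13) were 21 with doublets kept, 2 with cycle genes kept and 7 with per-cell CPM. Keeping cycle genes puts 404 cells into a cycling class by construction. In the Aire-stage class the S-phase sum (0.03) was -0.72 with the stricter filter, 0.35 with cycle genes kept and -0.21 at resolution 2; the mitotic sum (-1.32) was -0.96, 0.42 and 0.62 under these, -0.99 with doublets kept, -0.76 with per-cell CPM, -1.54 without Hmgb2 and 0.64 without cluster 10. TMM moved the median gene by -0.10 over Epcam-positive cells. Otherwise the cause of these changes was not tested. Depth limits Cdc6, Plk1, Bub1 and Cdc45, which have few UMIs per class, and the Ciliated- and Aire-stage classes of the library labelled +/fl, which hold 16 and 108 cells.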
